A study of Rattus norvegicus with 11 samples.

Results

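Egfl7 (ENSRNOG00000019388) and Ramp1 (ENSRNOG00000019926) are 2 of the 32883 genes counted in the corpora quadrigemina of KM, “0” and W rats. They were taken by gene identifier, and they were selected on their CPM in these same rats, since earlier results of the libraries had shown them to differ between strains. Their levels and fold changes are therefore given as a description, without a test. Poly(A) RNA of the inferior and superior colliculi was sequenced from 3 KM, 4 “0” and 4 W rats, each rat as its own library. All were males of 4 months, killed 4 days after their last exposure to a loud bell. KM rats are an inbred strain bred from Wistar stock for audiogenic epilepsy (AE), a seizure set off by sound, and before that last exposure they had been tested with sound a single time. The “0” rats come from a strain still under selection for the lack of AE, founded from hybrids of KM and Wistar rats, and only animals that did not respond in 3 earlier sound tests entered the study. According to the paper, the strain was crossed back to KM several times early on, and present Wistar rats have long been bred apart from KM. W rats are outbred Wistar animals, from which those with a wild run after sound had been removed. On sound testing the KM rats had tonic convulsions of the highest score, while the W and “0” rats used were not prone to AE. A history of seizures therefore cannot be told apart from strain in these rats. GEO's strain field reads wistar for all 11 rats, and its genotype field describes KM as prone to AE, “0” as less prone and W as wild type.

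EGFL7 is a protein that endothelial cells secrete into the vessel wall, where it can bind Notch receptors and integrins during vessel growth. Its gene also hosts the microRNA miR-126, which is common in endothelium. RAMP1 is a small membrane protein that crosses the membrane once and pairs with the receptor CALCRL to form the receptor for calcitonin gene-related peptide (CGRP), a peptide that widens vessels. Paired with the calcitonin receptor it forms a receptor for amylin, and it is found both in the smooth muscle of vessels and in neurons. Bulk RNA cannot tell fewer cells of a type from less RNA per cell, and it does not show which cells of the colliculi held either mRNA.

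The 11 libraries held between 10545964 and 15140180 reads assigned to genes, so that the floor of 3 counts stood at 0.198 to 0.284 CPM, the count of a gene scaled to the assigned reads of its library. Both genes lay far above it in every rat, with 98 to 618 counts for Egfl7 and 171 to 488 for Ramp1. The 10 most counted genes took 7.94% of the reads in KM 3 and 29.2% in “0” 3, and the TMM factors, which correct for such differences, ran from 0.815 in “0” 3 to 1.13 in “0” 4. KM 3 also stood apart by choroid plexus transcripts. The 7 measured choroid plexus genes summed to 7869 CPM in KM 3, 34.0 in KM 1 and 70.5 in KM 2, and to between 15.0 and 69.9 in the “0” and W rats, and most of the sum in KM 3 was transthyretin (Ttr), at 7179 CPM.

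Egfl7 was high in KM and “0” rats and low in W rats. It reached 34.4, 29.9 and 30.2 CPM in the KM rats. The “0” rats held 26.1, 23.1, 22.3 and 45.4 CPM. In the W rats it was 11.8, 14.7, 10.2 and 8.46 CPM. Every KM and every “0” rat lay above every W rat, and the KM range fell inside the “0” range.

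The lowest W value, 98 counts in W 4, had a Wilson 95% interval of 6.94 to 10.3 CPM, which covers counting error only. The strain means were 31.5 ± 2.48 CPM in KM (SD, n = 3), 29.2 ± 10.9 in “0” (SD, n = 4) and 11.3 ± 2.64 in W (SD, n = 4). In the order of levels, KM and “0” did not differ beyond their spread, and both stood apart from W. The mean was 2.79 times the W mean in KM and 2.59 times the W mean in “0”. The spread within “0” came mainly from “0” 4, since the other 3 “0” rats held 22.3 to 26.1 CPM and lay below all 3 KM rats. With TMM scaling this order did not hold, as “0” 3 stood at 27.3 and KM 3 at 27.0.

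Ramp1 showed the opposite order, lowest in KM and highest in W. The KM rats held 14.6, 16.8 and 18.3 CPM. The “0” rats held 18.3, 24.2, 29.5 and 19.5 CPM. In the W rats the values were 35.6, 38.5, 34.4 and 25.3 CPM. All KM rats lay below all W rats, while “0” 3 lay above W 4, so that “0” and W overlapped.

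The mean level of Ramp1 was 16.6 ± 1.87 CPM in KM (SD, n = 3), 22.9 ± 5.11 in “0” (SD, n = 4) and 33.4 ± 5.70 in W (SD, n = 4). The W mean was 2.02 times the KM mean and 1.46 times the “0” mean, and the “0” mean was 1.38 times the KM mean. KM and “0” did not overlap, but the highest KM rat and the lowest “0” rat were only 0.0225 CPM apart, far less than the counting error of either. With TMM scaling this gap was 0.747 CPM. Neither neighbouring pair in the order of Ramp1, KM and “0” or “0” and W, was therefore clearly parted by the spread between rats.

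**Figure D1:**
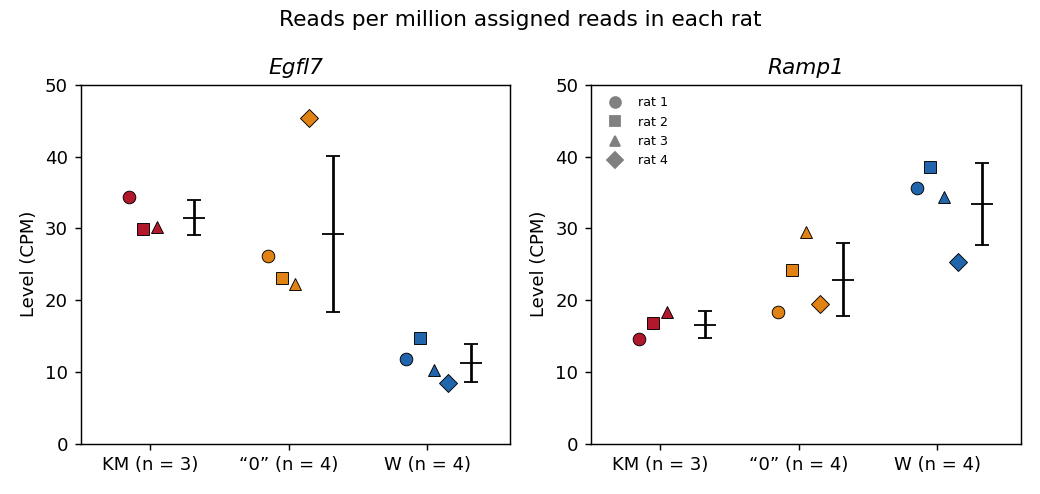
Level of Egfl7 and Ramp1 in CPM (vertical axis, from 0) in each of the 11 rats by strain, each symbol 1 rat, with the strain mean and SD as the black line with caps beside it. All W rats lie below the other 2 strains for Egfl7, with “0” 4 alone at 45.4 CPM, and all KM rats lie below all W rats for Ramp1, with “0” between them.

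The opposite order of the genes can be read within each library from the ratio of their counts, in which depth cancels. Since gene lengths were not used, this ratio compares libraries and not the abundance of the 2 mRNAs. In KM the Egfl7 count was 1.65 to 2.36 times the Ramp1 count, in “0” 0.754 to 2.33 times and in W 0.297 to 0.381 times. The mean log2 ratio was 0.93 ± 0.27 in KM (SD, n = 3), 0.32 ± 0.71 in “0” (SD, n = 4) and −1.58 ± 0.15 in W (SD, n = 4). Each W rat thus had fewer Egfl7 than Ramp1 reads and each KM rat more, while “0” rats fell on both sides.

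Fits across all genes with edgeR's quasi-likelihood (QLF) model gave the same picture on the TMM scale. In KM vs W, the log2-fold change of Egfl7 was 1.39 (SE 0.17, 95% interval 0.99 to 1.78) and that of Ramp1 was −1.11 (SE 0.15, interval −1.45 to −0.78). In KM vs “0”, it was 0.02 for Egfl7 (SE 0.21, interval −0.45 to 0.49) and −0.62 for Ramp1 (SE 0.26, interval −1.22 to −0.03). In “0” vs W, it was 1.36 for Egfl7 (SE 0.21, interval 0.90 to 1.82) and −0.50 for Ramp1 (SE 0.23, interval −1.01 to 0.01). The 3 comparisons share rats in pairs, so these values are not independent of each other.

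As background, 10.9% of the 13721 genes tested in KM vs W had an unadjusted p under 0.05 in this QLF test, as had 3.65% of 13686 in KM vs “0” and 6.69% of 13630 in “0” vs W. The 3 KM and 4 W rats did not overlap in 12.3% of genes, with KM higher in 9.38% and lower in 2.88%. KM and “0” did not overlap in 4.71% of genes, with KM higher in 3.92% and lower in 0.789%, and “0” and W did not in 3.82%, with “0” higher in 1.42% and lower in 2.39%. An adjusted p under 0.05 was reached by 0.0656% of genes for KM against W, 0.0146% for KM against “0” and 0.11% for “0” against W. Since the choice of Egfl7 and Ramp1 used these contrasts, nothing is read from their place among these genes.

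Single rats moved the Ramp1 values that involve “0”. Without “0” 3, which held the most Ramp1 of its strain and had the lowest TMM factor, the log2-fold change of Ramp1 was −0.37 in KM vs “0” and −0.75 in “0” vs W. Without “0” 4 it was −0.35 in “0” vs W. Egfl7 in “0” vs W stayed between 1.18 and 1.49 whichever rat was left out, with the lowest value without “0” 4. Without KM 3, the rat rich in choroid plexus transcripts, KM vs W gave 1.46 for Egfl7 and −1.14 for Ramp1, which is as large as with it.

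**Figure D2:**
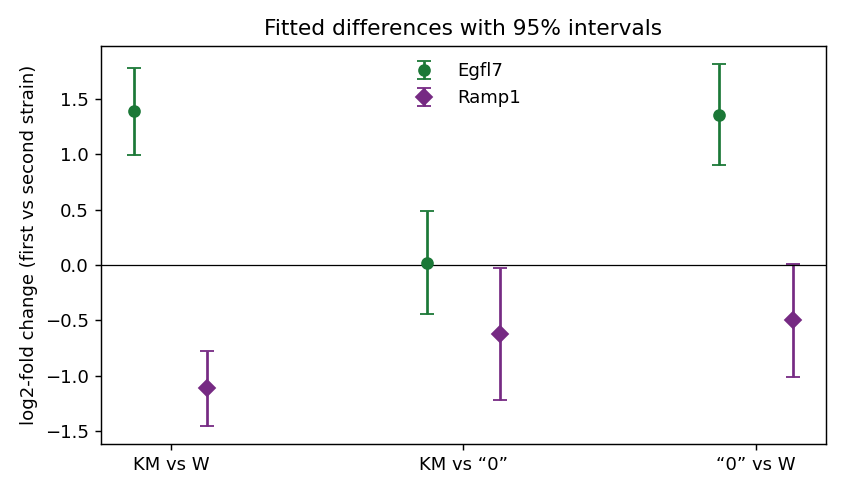
Log2-fold change of Egfl7 and Ramp1 (vertical axis) in each of the 3 comparisons of strains (horizontal axis), with points for the fitted value and lines for its 95% interval. The 2 genes lie on opposite sides of 0 in KM vs W, at 1.39 and −1.11, and Egfl7 lies at 0.02 in KM vs “0”.

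The place of “0” between the KM and W rats was summarised by the compensation coefficient, the KM minus “0” difference of mean log2 CPM as a percentage of the KM minus W difference. A value of 0 puts “0” at the KM level, and the whole of the KM minus W difference puts it at the W level. It was 3.52% for Egfl7, with −31.1% to 25.7% for single “0” rats, all of them nearer to the KM mean than to the W mean. For Ramp1 it was 51.2%, with single “0” rats at 24.4%, 57.4%, 110% and 13.0% in order of their numbers, so that 1 rat, “0” 3, stood at the W level, 1 midway and 2 nearer to KM. The KM mean enters both parts of the coefficient.

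Genes of endothelial cells were the first group set beside Egfl7. Of 33 endothelial markers, 9 could be matched to a counted gene, because gene symbols were at hand for only 1763 genes, nearly all of which the study had listed as differing in KM vs W or KM vs “0”. A high count of called genes is thus built into the list, and it is not independent evidence of a direction. Among all genes with a symbol, 78.6% were called in KM vs W and 39.5% were called higher in KM. In KM vs W all 9 endothelial genes were higher in KM at an unadjusted p under 0.05, against 5.58% of all genes tested. KM was higher without overlap in 8 of them, against 9.38% of all genes, and this share was not counted among genes with a symbol. Their median log2-fold change was 0.42, against 0.01 for all genes and 0.07 for those with a symbol. None of the 9 passed an adjusted p of 0.05 in edgeR's QLF test with Benjamini-Hochberg adjustment (lowest adjusted p = 0.223).

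The endothelial difference was smaller than that of Egfl7 for every gene of the list. Emcn, a sialomucin of the endothelial surface, had the largest, with a mean of 12.7 CPM in KM and 6.62 in W and a log2-fold change of 0.84 (SE 0.17). Adgrl4, an adhesion receptor of angiogenic endothelium, gave 0.64, and Kdr, the main receptor for the growth factor VEGF, gave 0.61. Tek, the angiopoietin receptor, gave 0.51, Sox17, a transcription factor of arterial endothelium, 0.42, and Abcb1a, an efflux pump of the blood-brain barrier, 0.40. Flt1, a second VEGF receptor, gave 0.36, Slco1c1, the barrier's thyroxine transporter, 0.32, and Itm2a 0.30, the only one of the 9 in which KM and W overlapped. Leaving out 1 rat left 6 to 8 of the 9 called, and taking the replicate number as a block left 6. Among the fits without 1 rat, Sox17 was called only without KM 2 and Itm2a only without KM 1 or W 1. Ramp1 moved against the whole list in this comparison.

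In “0” vs W, 5 of the 9 endothelial genes were higher in “0” (background 3.26% of all genes, and 12.8% of those with a symbol) and 4 were not called. The 5 were Emcn at a log2-fold change of 0.58, Tek at 0.41, Itm2a at 0.38, Kdr at 0.37 and Flt1 at 0.34. Leaving out “0” 2 or W 2 left 3 of them. In KM vs “0”, only Adgrl4 was higher in KM, with a log2-fold change of 0.57 (SE 0.21), and 8 genes were not called (background 2.37% of all genes, and 16.1% of those with a symbol). Leaving out KM 2, KM 3, “0” 3 or “0” 4 took the unadjusted p of Adgrl4 above 0.05 in edgeR's QLF test. The lowest adjusted p of the list was 0.4995 in “0” vs W and 0.987 in KM vs “0”.

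Egfl7 was then set on the scale of these 9 genes, as its log2 CPM minus their mean log2 CPM in the same rat. On this scale it was −0.25 ± 0.17 in KM (SD, n = 3), −0.09 ± 0.45 in “0” (SD, n = 4) and −1.15 ± 0.31 in W (SD, n = 4). The KM minus W difference fell from 1.39 unscaled to 0.90, as the list itself differed by 0.49, and the “0” minus W difference was 1.06 where the unscaled one was 1.34. W rats stayed below all KM and “0” rats. Since Egfl7 was chosen for a large difference in these rats, and the 9 markers could be named only through a list of differing genes, this is a description and no test of Egfl7 against endothelial genes.

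The same scaling widened the strain differences of Ramp1. It stood at −1.17 ± 0.11 in KM (SD, n = 3), −0.41 ± 0.44 in “0” (SD, n = 4) and 0.41 ± 0.23 in W (SD, n = 4). KM minus W was −1.59, KM minus “0” −0.77 and “0” minus W −0.82. The widening follows from the subtraction, since the endothelial list itself differed by 0.49, 0.20 and 0.28 in the same order, opposite to Ramp1. KM no longer touched “0”, since the highest KM rat stood at −1.11 and the lowest “0” rat at −0.72. The “0” and W rats still overlapped. The endothelial markers could be named only through a list of differing genes. Neither the widening nor the gap between KM and “0” on this scale is therefore a finding about Ramp1.

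**Figure D3:**
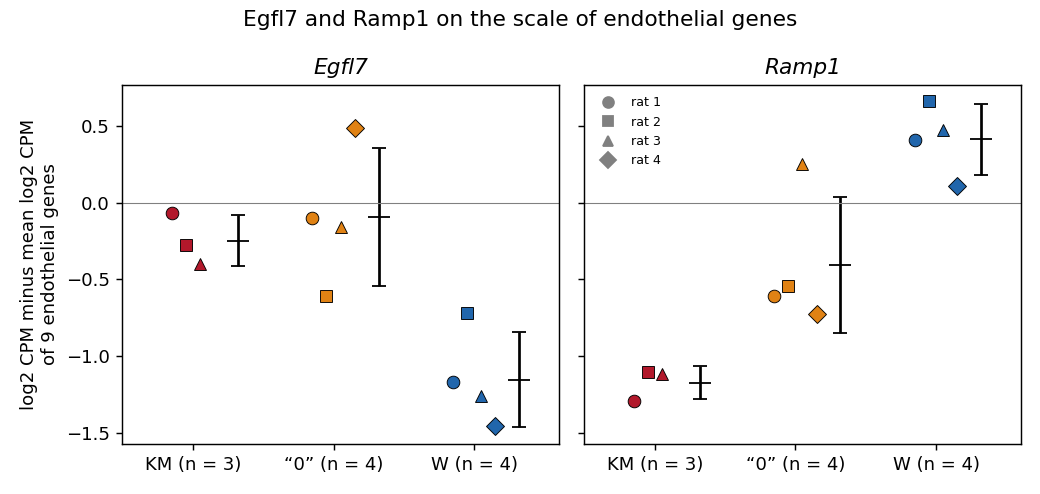
Log2 CPM of Egfl7 and Ramp1 minus the mean log2 CPM of 9 endothelial genes (vertical axis) in each rat by strain, each point 1 rat, with the strain mean and SD. Egfl7 in W, at −1.15 on average, lies below KM and “0”, and Ramp1 in KM, at −1.17 on average, lies below “0” and W.

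Mural cells are the pericytes and smooth muscle around the endothelium. In KM vs W, 3 of their 6 measured genes (of 21 listed) were higher in KM, 1 was lower and 2 were not called, where 10.9% of all genes, but 78.6% of genes with a symbol, were called. These 4 calls did not stand without single rats, since leaving out any 1 rat left 0 to 2 of them (0 without W 1, 1 without KM 2 or KM 3, and 2 without any other), and a single fit of all 11 rats left 2. Those higher were the pericyte genes Rgs5, a regulator of G protein signalling, at a log2-fold change of 0.37, and Kcnj8 and Abcc9, the subunits of a potassium channel, at 0.43 and 0.34. Acta2, the actin of smooth muscle, was lower at −0.70. Vtn, the secreted protein vitronectin, had −0.31 and Des, the muscle filament protein desmin, −0.01.

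In “0” vs W, Kcnj8 (0.72) and Abcc9 (0.53) were higher in “0” (background 3.26% of all genes, and 12.8% of those with a symbol). Without W 4, 4 mural genes were called. In KM vs “0”, 1.29% of all genes were called lower in KM. Of genes with a symbol, 25.8% were called in either direction and 16.1% were called higher in KM. Vtn (−0.46), Acta2 (−0.55) and Des (−0.42) were lower in KM in this comparison. Without KM 3 none of these 3 was called and without “0” 3 only Acta2 was. Among the fits without 1 rat, Des was called only without KM 2. Des also lost its call in DESeq2's Wald test, without a filter and in a single fit of all 11 rats. With the replicate number as a block it was not called either. No mural gene passed the adjustment. On the scale of the 6 mural genes, Ramp1 kept a KM minus W difference of −1.13 without overlap. Its KM minus “0” difference was −0.26, with overlap, against −0.56 unscaled, as the mural genes together differed by −0.30 between KM and “0”, and it was −0.04 without “0” 3. Egfl7 on this scale differed by 1.36 between KM and W without overlap, and by 1.01 between “0” and W with overlap.

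Among the ligands, receptors and helper proteins of the calcitonin and CGRP family, 1 of 11 listed genes besides Ramp1 could be matched. The receptors Calcrl and Calcr and the CGRP genes were not analysed here, so nothing is known from these values of the partners with which RAMP1 forms a receptor. The matched gene was Ackr3, a scavenger receptor for chemokines that also takes up adrenomedullin. It held 7.53 to 10.6 CPM in KM, 5.43 to 9.20 in “0” and 11.6 to 14.6 in W. Ackr3 was lower in KM than in W (log2-fold change −0.63, SE 0.16, adjusted p = 0.320) and lower in “0” than in W (−0.82, SE 0.22, adjusted p = 0.352) at an unadjusted p under 0.05 in edgeR's QLF test. Called lower were 5.33% of all genes in KM vs W and 3.43% in “0” vs W. Ackr3 could be matched only as a gene with a symbol, and of those 78.6% were called in either direction in KM vs W and 24.9% in “0” vs W. Its call in KM vs W is therefore no independent evidence. KM vs “0” gave 0.19 (SE 0.27), not called. Ackr3 was thus lower than in W in both strains without overlap, whereas Ramp1 in “0” overlapped W. Of all genes, 2.88% were lower without overlap in KM vs W and 2.39% in “0” vs W.

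Of 7 measured partners and regulators of Egfl7 (26 listed), 3 were higher in KM than in W, 3 were lower and 1, the Notch target Hey2, was not called (log2-fold change −0.39). The share called is near the 78.6% of all genes with a symbol, of which 39.5% were higher in KM, so it is no result about these partners as a group. Itgav, the integrin subunit of a receptor that binds EGFL7, was higher at 0.71, as were the receptor Notch2 at 0.67 and Ets1, a transcription factor of the ETS family that is active in endothelium, at 0.37. The Notch target Heyl was lower at −0.76, and so were Klf2 (−0.59) and Klf4 (−0.52), factors that endothelium raises under flow. With 1 rat left out, Ets1 stayed called only without W 1 or W 4, and it also lost its call with the replicate number as a block. Heyl lost its call without KM 1 and Klf2 without KM 3.

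Notch2 was also higher in KM than in “0” (0.65) and Heyl lower (−0.88), though Heyl was not called there without KM 1. In KM vs “0”, 3.65% of all genes and 25.8% of those with a symbol were called. In “0” vs W, Klf2 (−0.93) and Klf4 (−0.79) were lower in “0”, without overlap of the strains, and the other 5 were not called. There 6.69% of all genes and 24.9% of those with a symbol were called, and 2.39% of all genes were lower in “0” without overlap. The 2 of 7 called in each comparison are near the share of genes with a symbol, so they are no result about the partners as a group. None of the 7 passed an adjusted p of 0.05 in any comparison.

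**Figure D4:**
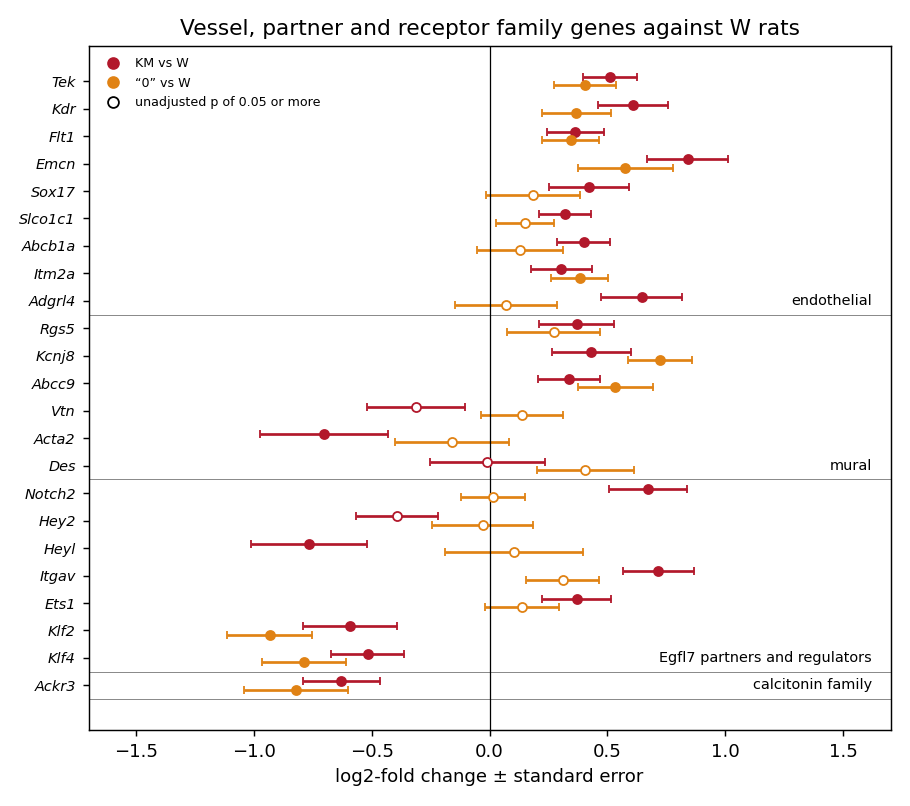
Log2-fold change (horizontal axis) against W rats, in KM (red) and in “0” (orange), of the 23 measured genes of the endothelial, mural, Egfl7 partner and calcitonin family lists, each point a fitted value with its standard error and open where the unadjusted p was 0.05 or more. In KM vs W the 9 endothelial genes lie to the right of 0, between 0.30 and 0.84, and the other lists hold genes on both sides or, for Ackr3, on the left.

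Markers of other cells differed between strains as well, but they too could be matched only as genes with a symbol. The 9 endothelial genes summed to 468 to 527 CPM in KM, 374 to 477 in “0” and 332 to 372 in W. None of these 9 was at 0 in any rat. The 4 measured erythrocyte genes (of 11), led by the globin gene Hba-a2, summed to 372 to 785 CPM in KM, 298 to 470 in “0” and 807 to 1833 in W, so that W, the strain with least Egfl7 and most Ramp1, held the most, and 1 of the 4 was at 0 in some “0” rat. The 3 measured astrocyte genes (of 5), summed to 1744 to 2428 CPM in KM, 1550 to 2869 in “0” and 1323 to 1493 in W, most of it Gfap. Only Gfap was higher in KM than in W at an unadjusted p under 0.05 (log2-fold change 0.62), and Aldh1l1 and Gja1 were lower (−0.46 each). In KM vs W, 10.9% of all genes and 78.6% of those with a symbol were called, so these calls are no result about astrocytes. None of them passed an adjusted p of 0.05 in edgeR's QLF test (lowest adjusted p = 0.320). Tmem119, the measured microglial gene (of 6), held 23.1 to 28.6 CPM in KM, 14.4 to 24.3 in “0” and 15.1 to 20.7 in W. The part of these cells in the levels of Egfl7 and Ramp1 was not tested, and fibroblast and neuron markers were not analysed here.

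Genes whose levels followed Egfl7 and Ramp1 most closely were sought among 13693 genes by Pearson's r of log2 CPM over all 11 rats. The rats fall into 3 strains and share their library depth and composition with both genes compared, so r is a description. Nearest to Egfl7 were ENSRNOG00000011182, for which no symbol was at hand (r = 0.948, Spearman's rho = 0.755), AABR07000733.1 (r = 0.942, rho = 0.773) and Nbl1, an inhibitor of BMP proteins (r = 0.933, rho = 0.845). ENSRNOG00000011182 held 1.36 to 2.05 CPM in KM, 0.987 to 1.84 in “0” and 0.173 to 0.323 in W, which is around the floor. AABR07000733.1 split the strains further than Egfl7 did, with 4.60 to 5.63 CPM in KM, 3.22 to 4.16 in “0” and 0 to 0.0808 in W, which is under the floor. Nbl1 held 143 to 156 CPM in KM, 127 to 187 in “0” and 93.2 to 108 in W.

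Nearest to Ramp1 over all rats were Otub1, a deubiquitinase (r = 0.973, rho = 0.964), Gnb2, a G protein beta subunit (r = 0.953, rho = 0.918), and Wdr18 (r = 0.938, rho = 0.900). Otub1 ranged from 177 to 214 CPM in KM, 200 to 225 in “0” and 202 to 260 in W, a far narrower span for its level than that of Ramp1. With the strain means taken off, the nearest to Ramp1 were Npsr1, the receptor of neuropeptide S (r = 0.952), a gene without a symbol (r = 0.946) and Otub1 again (r = 0.932). The level of Npsr1 was low, at 0.682 to 1.78 CPM in KM, 0.770 to 4.04 in “0” and 1.38 to 3.79 in W. For Egfl7 the 3 nearest were then genes without a symbol, the first of them ENSRNOG00000003186 (r = 0.980). Without the 2 rats farthest from the median of each member, r of these 12 pairs lay between 0.878 and 0.965. Egfl7 and Ramp1 themselves gave r = −0.734 (rho = −0.618) over all rats and r = −0.208 (rho = −0.0818) with the strain means taken off. Most of their inverse relation thus lay between strains. Both were chosen for differences between these strains, so this is a description and no finding on how the genes relate.

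The starts of the 2 genes are shown because the strains differed in their mRNA, and because the counts join all transcripts of a gene. RefSeq's rat assembly GRCr8, which is not the assembly used for counting, lists 2 starts for Egfl7 on chromosome 3 and 1 for Ramp1 on chromosome 9, all on the plus strand, and which Egfl7 start the reads came from was not tested. The 250 bases before each start are printed from that assembly, not from these rats, with capitals for the ETS motif ACAGGAAGT and the GC box GGGCGG on either strand (ACTTCCTGT and CCGCCC when read on the other), both chosen after the sequences had been seen. The windows are chr3:29805381-29805630, chr3:29808051-29808300 and chr9:99212866-99213115.
Egfl7 start 1: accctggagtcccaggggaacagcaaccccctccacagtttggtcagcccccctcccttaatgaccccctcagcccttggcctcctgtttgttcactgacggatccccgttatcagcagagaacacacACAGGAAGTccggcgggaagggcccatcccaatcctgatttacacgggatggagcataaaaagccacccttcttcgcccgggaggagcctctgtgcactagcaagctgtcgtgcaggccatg
Egfl7 start 2: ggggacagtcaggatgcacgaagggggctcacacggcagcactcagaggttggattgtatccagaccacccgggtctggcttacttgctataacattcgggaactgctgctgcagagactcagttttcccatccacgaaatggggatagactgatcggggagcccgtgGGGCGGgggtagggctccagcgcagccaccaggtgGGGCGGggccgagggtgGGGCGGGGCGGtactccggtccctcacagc
Ramp1 start: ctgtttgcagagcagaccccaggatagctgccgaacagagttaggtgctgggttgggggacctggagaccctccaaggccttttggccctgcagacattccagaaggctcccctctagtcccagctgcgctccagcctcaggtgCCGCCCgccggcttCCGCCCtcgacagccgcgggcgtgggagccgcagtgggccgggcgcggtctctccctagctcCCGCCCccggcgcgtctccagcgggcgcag
The first Egfl7 window held 1 ETS motif and no GC box, a motif found in 0.708% of 33469 rat windows of this length. The second Egfl7 window held 4 GC boxes and the Ramp1 window 3, a motif found in 30.5% of windows, and some of these boxes overlap. The GC content was 59.2%, 64% and 70% in the order printed. A match is a description of the letters and not a binding site.

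RefSeq places the precursors of miR-126 (Mir126a and Mir126b) inside Egfl7, and the counts do not report the mature microRNA. It also lists a pseudogene, Egfl7-ps1, elsewhere in the genome, and whether reads were shared with it was not tested. The nearest protein-coding neighbours of Egfl7 are Notch1 and Agpat2, and those of Ramp1 are Rbm44 and Ube2f. Of the 5 genes on each side of each, only Lrrfip1, near Ramp1, had a symbol in these data. It was higher in KM than in W (log2-fold change 0.43, SE 0.19, adjusted p = 0.455 in edgeR's QLF test), opposite to Ramp1, and was not called in KM vs “0” (0.15, SE 0.19) or “0” vs W (0.27, SE 0.18).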

How the data were processed

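Poly(A) RNA libraries of 3 KM, 4 “0” and 4 W rats were grouped by their titles. According to the study's methods and submitters' notes, reads were trimmed with Trimmomatic, mapped to Rnor_6.0 with STAR and counted per gene with HTSeq. The strand setting of the counting is not given in the sources used here, so reads of an antisense partner may not be told apart. The authors deposited whole-read counts per gene without normalization, and the rows for reads on no gene or several genes stayed out of library sizes (reads on no gene came to 16.5 to 22.7% of the sum of assigned reads and these rows). The reads were not analysed here.

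Counts were fitted in R 4.3.3 with edgeR 4.0.16 (limma 3.58.1), separately for each of the 3 pairs of strains. TMM normalization and the QLF test in its original form were used, keeping genes whose mean CPM reached 1. The threshold for a call was an unadjusted p of 0.05, with Benjamini-Hochberg values over all genes tested beside them, and the fits were tested on simulated data. Nothing says that the rats came from separate litters, so p-values measure the spread between these rats. Intervals of log2-fold changes used the fit's standard error and total degrees of freedom. CPM are counts divided by the total of assigned reads in units of 1 megaread, and log2 CPM used TMM-scaled libraries and a prior count of 2.

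Egfl7, Ramp1 and the gene lists were chosen with earlier results of these data known. Symbols for 1763 identifiers were taken, as names only, from the study's supplementary list of differing genes, whose own fold changes and p-values were not used. Genes named were both members, all matched calcitonin family genes, endothelial, mural and partner genes called in KM vs W or else those with the highest CPM, the most abundant gene of each other list (1 of these is not reported here), 5 neighbours on each side and the 3 nearest by correlation. Promoter sequences are from RefSeq (GRCr8), matched by symbol for 2 of 2 genes. Alternatives were DESeq2 1.42.0 (its size factors and its Wald test), no filter, filterByExpr, a single fit of 11 rats, the replicate number as a block, an adjusted threshold, a prior count of 0.5, the median of a list and leaving out each rat. The mural and partner lists and TMM-scaled CPM were added to these after seeing the data.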

Additional observations from a re-analysis of the deposited data

Results flagged for a closer look

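Egfl7 in “0” 4, at 45.4 CPM, lay far from the other 3 “0” rats, of which the next highest held 26.1 CPM. The gap took 0.834 of the range of the strain, just above Dixon's critical value at the 95% level for 4 samples. Of 22 groups of 4 rats examined in this way 1 was marked, and chance marks about 1 in 20. With TMM scaling the values were 40.2 and 27.3 CPM and the gap took 0.756 of the range, which is under the critical value. The same rat had the highest TMM factor (1.13) and the highest share of reads on no gene (22.7%), and the part of these in its Egfl7 level was not tested.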

How the results depend on the processing

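The log2-fold changes of Egfl7 and Ramp1, and their values on the endothelial and mural scales, moved by less than the spread between rats under every alternative run for them, and no call turned its direction. That spread is wide for Ramp1 in “0”, and its KM minus “0” difference on the mural scale ran from −0.38 to −0.04 when 1 rat was left out. Leaving out 1 rat gave 1.29 to 1.52 for Egfl7 and −1.21 to −1.04 for Ramp1 in KM vs W, −0.07 to 0.21 and −0.75 to −0.37 in KM vs “0”, and 1.18 to 1.49 and −0.75 to −0.35 in “0” vs W. Counts of called genes were less steady. At an adjusted p under 0.05, edgeR's QLF test called 9 genes in KM vs W, and no gene of the endothelial or calcitonin family lists in any comparison (0 of 9 and 0 of 1), where the unadjusted threshold gave 9, 1 and 5 endothelial genes and 1, 0 and 1 calcitonin family gene in these 3 comparisons, KM against W, KM against “0” and “0” against W. The 500 genes called in KM vs “0” became 777 without a filter, where more genes were tested. Without 1 rat the genes called numbered 954 to 1831 in KM vs W (954 without W 1), 280 to 921 in KM vs “0” (295 without KM 1, 921 without KM 3, 280 without “0” 3) and 612 to 1017 in “0” vs W. Endothelial genes called numbered 6 to 8, 0 to 2 and 3 to 5 in the same order, with 6 without KM 3 or W 2. Mural genes called numbered 0 to 2 (4 with all rats), 0 to 3 (3 with all rats) and 2 to 4 (2 with all rats), and Egfl7 partners 4 to 7, 1 to 3 and 2 to 3.

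Replicate numbers shared between strains are not known to pair the rats. Deviations of same-numbered rats correlated at −0.183 to 0.190 in KM vs W, 0.0585 to 0.236 in KM vs “0” and −0.579 to 0.513 in “0” vs W. With the number as a block, KM vs “0” gave 781 called genes and 0 endothelial genes, KM vs W gave 1527 and 1 mural gene, and “0” vs W 804. Of the 36 calls among named list genes 26 were kept with the block. Egfl7 and Ramp1 had at least 98 counts in each rat. The number of rats and the symbols at hand also limit these results.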
